A study of Rattus norvegicus with 12 samples.

Results

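The interaction of soy protein isolate (SPI) and 17β-estradiol (E2) was measured in tibial bone of prepubertal female rats, with all 12 arrays of the series read as a 2 by 2 design. For each probe set it was (SPI+E2) - SPI - E2 + CAS on the log2 scale, which is 0 where the 2 treatments together change a transcript by the sum of the changes that each gives alone. All 31042 probe sets that are not array controls were tested, of 31099 in the table, and all 12 samples belong to the design. The 4 groups held 3 arrays each and were intact female Sprague-Dawley rats of postnatal day 34. The CAS group ate an AIN-93G diet with casein as protein, the SPI group the same diet with SPI in its place, the E2 group casein with E2 from a pump under the skin, and the SPI+E2 group SPI with the same dose of E2. The dams of every group had eaten casein. The labels start treatment at postnatal day 21 and the study's methods at weaning a day earlier. RNA came from right tibias whose marrow had been aspirated, and was pooled from 2 to 3 rats for every array. The p-values thus rest on differences among pools rather than animals, and precision is set by having 3 arrays in a group. Eif2s3y, which lies on chromosome Y, differed strongly between the groups although all pools were labelled female, and its values are given further on. In such whole tissue fewer cells of a type and less RNA per cell cannot be told apart.

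Soy isoflavones such as genistein and daidzein resemble E2 in structure and bind estrogen receptors, the β form more readily than the α form. E2 acts through receptors in the nucleus that bind response elements in DNA, and also through kinases at the membrane. In long bones of growing animals it acts on the growth plate, on bone resorption and on blood formation in the marrow. A compound that binds the same receptor weakly can add to E2 or compete with it. The 2 by 2 design asks, for each transcript, whether both treatments together give the sum of their separate changes.

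Few transcripts responded more strongly to the combination than to the sum of the single treatments, and most interactions ran against the single changes. Among probe sets, 1293 (4.17% of those tested) had a positive and 1785 (5.75%) a negative interaction at an adjusted p under 0.05. A total of 71 probe sets (0.229%) were more than additive and higher: the interaction was positive, SPI+E2 lay above CAS, above SPI and above E2, and neither single treatment lay below CAS, all by test. Another 25 (0.0805%) were more than additive and lower by the mirror definition, a count that fell to between 12 and 15 in 5 of the 12 fits that left out an array. In contrast, 938 probe sets (3.02%) rose with SPI and with E2 alone and had a negative interaction, and 349 (1.12%) fell with each alone and had a positive one. Per gene, as the mean of its probe sets, 1142 of 14217 genes (8.03%) had a positive and 1098 (7.72%) a negative interaction, and the classes held 54 (0.38%), 21 (0.148%), 592 (4.16%) and 303 genes (2.13%) in the same order.

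Most measured members of the neuron, sensory neuron and Schwann cell lists had a negative interaction, and most of the platelet, erythroid, cartilage and cell division lists a positive one. The largest more than additive rises were those of Vip, a vasodilator neuropeptide, Th and Dbh, enzymes of noradrenaline synthesis, and Alb, serum albumin. Genes of osteoblasts, the cells that form bone, showed no interaction by test in any of 8 measured members. The deposited values are centred on the median of each probe set over the 12 arrays. They hold differences only, so a level cannot be compared between genes and the presence of bone markers cannot be read. Members of the osteoblast list had mean values between -0.032 and 0.019 on every array.

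The promoters of 4 genes with nerve-related roles are shown. Those of Th, Slc18a2 and Scg2 hold the same sequence element and that of Vip only its core, while the interactions have opposite signs. Other promoters were searched as well: those of Dbh and Cyb561 held the core without the full element, and those of Ddc and Gpm6a neither. Npy, Alb and Phox2a were also in the search and gave no match. Whether each of these had a promoter to search was not recorded. Each is the 250 bases before the transcript start in RefSeq on build GRCr8, 5′ to 3′ on the strand of the gene. Capitals mark the cyclic AMP response element TGACGTCA or, in Vip, its shorter core TGACG. Vip lies on the plus strand at chr1:44470230-44470479, Th on the minus strand at chr1:207508219-207508468, Slc18a2 on the plus strand at chr1:268399771-268400020 and Scg2 on the minus strand at chr9:88256867-88257116.
Vip: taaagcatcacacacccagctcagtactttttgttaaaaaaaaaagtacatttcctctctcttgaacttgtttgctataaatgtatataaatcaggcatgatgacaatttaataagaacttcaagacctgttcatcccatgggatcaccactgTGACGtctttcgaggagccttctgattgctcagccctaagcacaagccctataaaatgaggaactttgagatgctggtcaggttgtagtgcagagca
Th: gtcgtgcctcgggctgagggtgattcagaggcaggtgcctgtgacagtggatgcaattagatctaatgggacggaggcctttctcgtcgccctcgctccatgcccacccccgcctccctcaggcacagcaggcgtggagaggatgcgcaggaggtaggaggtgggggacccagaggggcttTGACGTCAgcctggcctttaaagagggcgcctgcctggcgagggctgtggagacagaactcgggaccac
Slc18a2: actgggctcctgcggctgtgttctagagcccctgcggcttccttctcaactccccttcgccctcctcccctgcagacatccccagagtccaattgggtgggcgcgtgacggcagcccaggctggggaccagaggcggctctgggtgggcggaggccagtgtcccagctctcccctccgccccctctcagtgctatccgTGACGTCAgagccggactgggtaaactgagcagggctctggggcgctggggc
Scg2: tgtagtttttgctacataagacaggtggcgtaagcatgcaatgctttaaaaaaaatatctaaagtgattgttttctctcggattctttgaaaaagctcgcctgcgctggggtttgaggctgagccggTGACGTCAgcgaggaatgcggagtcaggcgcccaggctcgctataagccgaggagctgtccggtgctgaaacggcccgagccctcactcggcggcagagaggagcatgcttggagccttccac
The element ended 62 bases before the start of Th, 45 before that of Slc18a2 and 116 before that of Scg2, and the core in Vip ended 93 bases before its start. Th, Slc18a2 and Vip were more than additive and higher, with interactions of 2.36, 0.99 and 3.28 log2 units. Scg2, which encodes a protein of secretory vesicles and holds the same element as Th and Slc18a2, had an interaction of -1.995. On both strands, TGACGTCA occurred in 531 of 33469 rat promoters of this length (1.59%). It occurred in 3 of 48 promoters (6.25%) of the 42 more than additive and higher genes found in the promoter table, those of Th, Slc18a2 and the amino acid transporter gene Slc38a6, in 1 of 15 promoters (6.67%) of the more than additive and lower genes, and in 22 of 538 promoters (4.09%) of the 462 genes found that rose with each single treatment and were less than additive. The core, which lies within the element, was in 18.2% of all promoters. It was in 18.8% of the more than additive and higher set, 20% of the lower set and 23.2% of the less than additive set. The palindromic estrogen response element GGTCANNNTGACC was in 8 promoters of all (0.0239%) and in 0 of each of these sets. Its arm GGTCA was in 35.4% of all promoters. Among the sets it was in 43.8% of the more than additive and higher, 20% of the lower and 29.4% of the less than additive one. These matches are a description of the letters in this window.

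Vip showed the largest positive interaction of all genes. Its values were -0.196, -0.007 and -0.302 in the CAS arrays, 0.351, 0.202 and 0.007 with SPI, -0.392, -0.317 and -0.384 with E2, and 3.371, 2.965 and 3.466 with SPI+E2. The SPI+E2 arrays stood far above the 9 others, and neither single treatment passed the test against CAS. The combination was 10.8-fold above CAS, and the interaction was 3.28 log2 units (SE 0.176, adjusted p = 1.38e-07, 95% confidence interval 2.89 to 3.66). Leaving out any array gave 3.18 to 3.43, and quantile normalization of the arrays gave 1.94.

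Th encodes tyrosine hydroxylase, which starts catecholamine synthesis. Its values lay between -0.153 and 0.185 in CAS, between -0.164 and 0.336 with SPI and between -0.466 and -0.005 with E2, and reached 2.374, 1.764 and 2.561 with SPI+E2. Again only the combination stood apart, with an interaction of 2.36 (SE 0.28, adjusted p = 1.13e-04). Dbh, which turns dopamine into noradrenaline, read 1.428, 1.63 and 1.295 with SPI+E2 against -0.283 to 0.322 in all other arrays, with SPI alone 0.40 above CAS (adjusted p = 0.015) and an interaction of 1.21 (SE 0.147, adjusted p = 1.35e-04). Ddc, the decarboxylase between these steps, had an interaction of 0.68 (SE 0.0825) that came from 1 of its 2 probe sets, which read 1.37 and -0.01. Slc18a2, the transporter that loads monoamines into vesicles, was 1.98-fold above CAS with the combination with an interaction of 0.99 (SE 0.0968, adjusted p = 2.38e-05), positive in all 3 of its probe sets. Phox2a, a transcription factor of noradrenergic neurons, had an interaction of 0.54 (adjusted p = 0.038). Cyb561, a cytochrome of catecholamine vesicles named after its values were seen, had 0.52 (adjusted p = 0.00405).

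Npy, a neuropeptide released with noradrenaline, also stood apart in the combination, and unlike Vip and Th it passed the test with each single treatment. It read -0.151, -0.06 and -0.124 in CAS, 0.274, 0.092 and 0.06 with SPI, -0.412, -0.43 and -0.639 with E2, and 1.545, 1.629 and 1.539 with SPI+E2. It rose with SPI (0.25, adjusted p = 0.021), fell with E2 (-0.38, adjusted p = 0.0029) and rose by 1.68 with both, so the single treatments opposed each other and the definition of more than additive was not met. The interaction was 1.81 (SE 0.0994, adjusted p = 1.68e-07). Vip had changes of the same signs with SPI (0.355, adjusted p = 0.0562) and E2 (-0.196, adjusted p = 0.381) that did not pass.

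**Figure D1:**
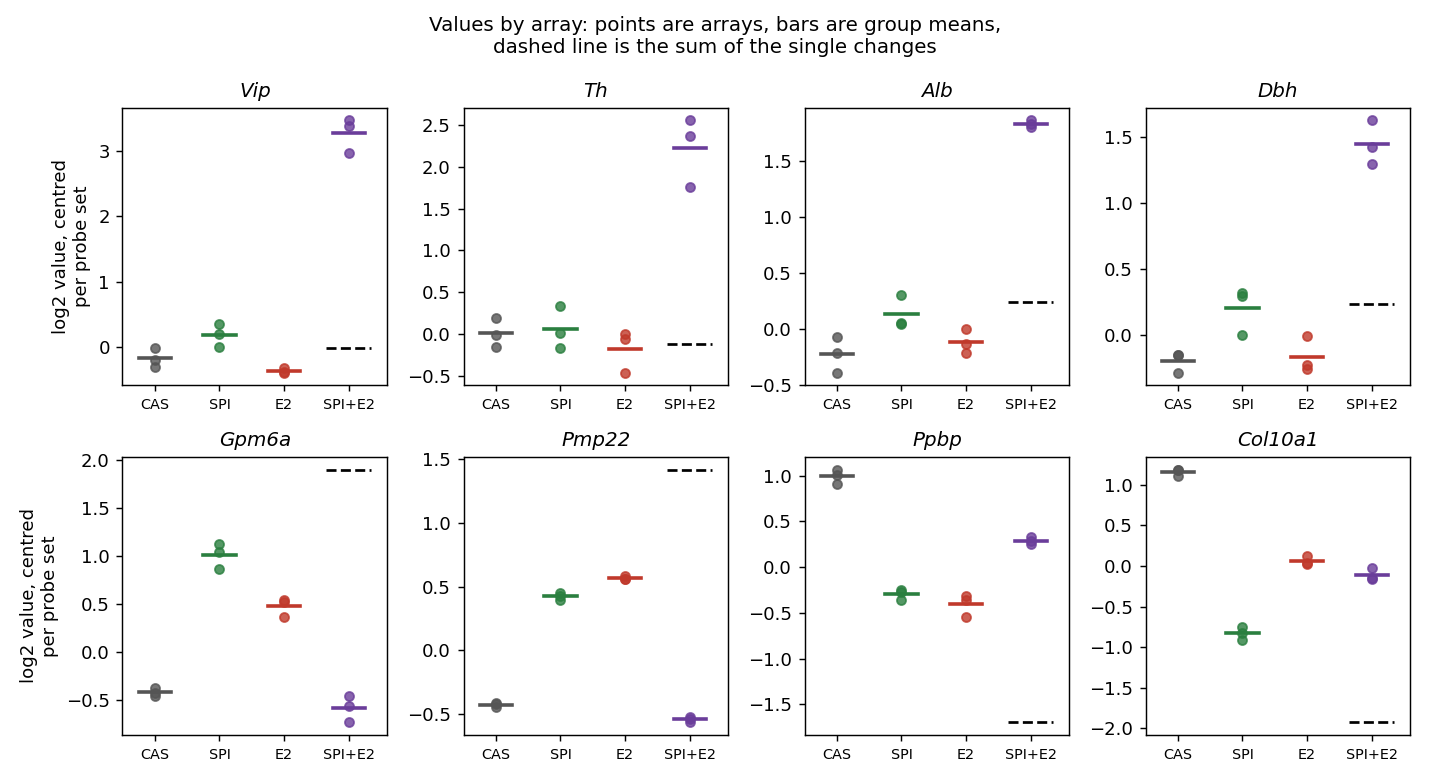
Values of 8 genes on each array, as log2 centred per probe set, by group. Points are arrays, bars are group means and the dashed line over SPI+E2 is CAS plus the sum of the single changes. Vip, Th, Alb and Dbh lie above that line in all 3 SPI+E2 arrays, Gpm6a and Pmp22 far below it near CAS, and Ppbp and Col10a1 above it but still below CAS.

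The 22 measured genes of the sympathetic and neuropeptide list split by direction. Of these, 7 had a positive interaction and 7 a negative one, beside 8.03% and 7.72% of all genes, with a median of -0.002 against 0.042 for all genes. The positive members were Vip, Th, Npy, Dbh, Slc18a2, Ddc and Phox2a, and all of these but Npy were more than additive, beside 0.38% of all genes. Among the negative members were the neuropeptide genes Adcyap1 (-1.323), Sst (-1.295) and Cartpt (-1.135), the granin gene Chga (-1.221) and Ret (-1.059), a receptor for neurotrophic factors. Adcyap1 was 0.74 above CAS with SPI, 0.58 with E2 and 0.002 with both. The noradrenaline transporter gene Slc6a2 and the acetylcholine synthesis gene Chat did not pass the test, at -0.055 and 0.113. The mean level of the list was between 0.441 and 0.485 on the SPI+E2 arrays, above the 0.106 to 0.19 of SPI, the -0.099 to 0.012 of E2 and the -0.213 to -0.139 of CAS.

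Alb, the main plasma protein of liver, was the largest of the more than additive genes outside nerve. It read -0.214, -0.066 and -0.389 in CAS, 0.301, 0.049 and 0.053 with SPI, -0.135, -0.21 and 0.002 with E2, and 1.804, 1.865 and 1.827 with SPI+E2. Its 4.16-fold rise over CAS stood beside an interaction of 1.59 (SE 0.126, adjusted p = 3.71e-06), positive in both probe sets, at 0.871 and 2.307, and at 1.06 after quantile normalization. Of the 14 measured plasma protein genes only Alb passed, beside 8.03% of all genes with a positive interaction and 7.72% with a negative one. The others lay between 0.006 and 0.351, among them Ttr, a carrier of thyroid hormone, at 0.351 (adjusted p = 0.11), and Hp, which binds free hemoglobin, at 0.308 (adjusted p = 0.0688).

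Among the other more than additive genes were several of neutrophils and macrophages. Defa7, a defensin, was 2.01-fold above CAS with the combination and had an interaction of 0.96 (SE 0.144, adjusted p = 6.58e-04). Lcn2, an iron-trapping protein of neutrophil granules, read 0.655, 0.744 and 0.695 with SPI+E2 against -0.171 to 0.1 in all other arrays, with an interaction of 0.60 (SE 0.0581, adjusted p = 1.98e-05). Both sets of arrays were clearly apart for Lcn2. Cd68, a lysosomal glycoprotein of macrophages, had 0.44 (SE 0.0706, adjusted p = 0.00117), and the keratin gene Krt19 0.93 (SE 0.166, adjusted p = 0.0024). Dnase2b, a nuclease, had 0.62 (SE 0.117, adjusted p = 0.00352). Beside 8.03% and 7.72% of all genes, 6 of 8 neutrophil genes had a positive interaction (median 0.373) and none a negative one. They differed in form, since Lcn2 was more than additive, the calcium-binding pair S100a8 and S100a9 rose with SPI and fell with E2, and the lectin gene Fcnb fell with each alone and read 0.016 with both.

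The more than additive and lower genes changed by less, and their number depended on single arrays: of 25 probe sets, the count was 14, 15 and 13 without CAS replicate 1, 2 or 3, and 14 and 12 without SPI+E2 replicate 1 or 2. The largest were Chn2, a regulator of Rac GTPases, with an interaction of -0.493 (SE 0.119, adjusted p = 0.0145), Ptn, a heparin-binding growth factor, with -0.477 (SE 0.126, adjusted p = 0.0238), Tmem233 with -0.451, and Elovl6, which elongates fatty acids, with -0.415 (SE 0.0852, adjusted p = 0.00578). Elovl6 read -0.367, -0.415 and -0.253 with SPI+E2 against -0.021 to 0.142 in the other 9 arrays. Phgdh, the first enzyme of serine synthesis, had -0.337 (SE 0.0679, adjusted p = 0.00505) and Ywhaq, a signaling adaptor, -0.301 (SE 0.0543). The calls of Ptn, LOC100909675 (-0.396), Dnm1l (-0.323), which divides mitochondria, and Adra2a (-0.315), an adrenergic receptor, were lost in 6, 8, 6 and 9 of the 12 fits that left out an array. The fibroblast matrix genes Col3a1 (-0.205) and Dcn (-0.189) met the same definition and were lost in 5 and 4. All genes named here met the definition per gene, as the mean of their probe sets. No probe set of LOC100909675, Adra2a, Col3a1 or Dcn passed the interaction test on its own, so these genes are not among the 25. Dcn also fell with SPI alone (-0.149, adjusted p = 0.00903).

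The more than additive probe sets were mostly silent to the single treatments. Of the 71 higher ones, 58 passed the test with neither SPI nor E2 alone, 10 rose with SPI alone and 2 with E2 alone, and 1 rose with both. Of the 25 lower ones, 25 passed with neither. The single probe set that rose with each treatment and further with both carries no single gene symbol. It read -0.329, -0.24 and -0.346 in CAS, 0.173, -0.128 and 0.095 with SPI, 0.013, -0.104 and -0.013 with E2, and 0.732, 0.645 and 0.689 with SPI+E2, an interaction of 0.37 (SE 0.103, adjusted p = 0.0419). No gene with both single treatments past the test in one direction had an interaction in that direction.

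**Figure D2:**
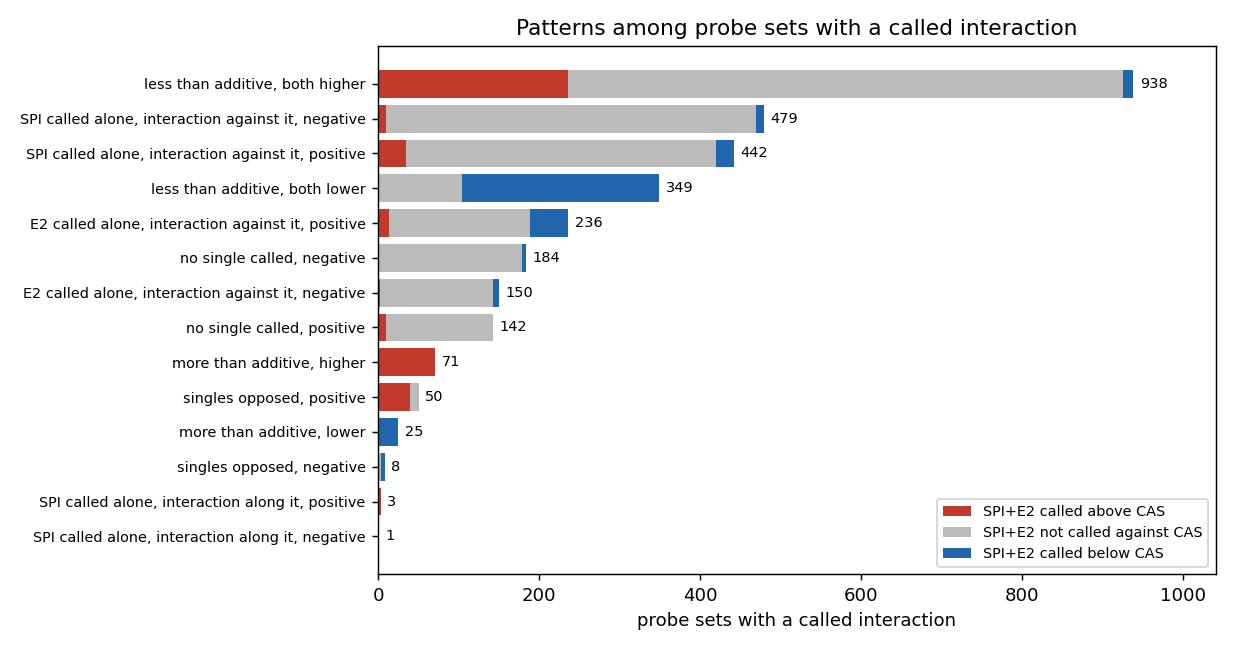
Probe sets with an interaction past the test, by class, with bars as counts split by the test of SPI+E2 against CAS (red above, grey not past, blue below). The largest class, 938 probe sets raised by each single treatment, is mostly grey, and the more than additive classes hold 71 and 25.

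Genes raised by each treatment were returned towards CAS by the combination. The background was 8.25% of probe sets higher and 9.07% lower with SPI, 4.99% and 4.36% with E2, and 4.14% and 4.33% with both. Of 1001 probe sets higher with SPI and with E2, 938 (93.7%) had a negative interaction. For these 938 the median change was 0.584 with SPI, 0.498 with E2 and 0.146 with both, where the sum of the single changes had a median of 1.082. With both treatments 689 (73.5%) no longer differed from CAS by test, 236 were still above it and 13 were below it. Of 469 probe sets lower with each treatment, 349 (74.4%) had a positive interaction, with medians of -0.34, -0.476 and -0.317 against a sum of -0.825. These 349 differed from the raised ones in that 245 remained below CAS with the combination. The same 3 CAS arrays enter both single changes and, with the opposite sign, the interaction, so an error in them alone moves the interaction against the single changes.

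A comparison that shares no array gave the same direction. E2 against CAS was set beside SPI+E2 against SPI, the change with E2 on each diet. Of 1548 probe sets that rose with E2 on casein, 749 (48.4%) fell with E2 on SPI, 243 rose and 556 did not pass, and the median change went from 0.386 on casein to -0.227 on SPI. For the 1354 that fell with E2 on casein, 63 rose on SPI, 231 fell and 1060 did not pass, with medians of -0.35 and -0.066. Opposite changes on the 2 diets were thus mainly among probe sets that E2 raised on casein. With the roles exchanged, of 2562 probe sets that rose with SPI, 670 (26.2%) fell with SPI under E2, 321 rose and 1571 did not pass. Of 2814 that fell with SPI, 149 rose under E2, 432 fell and 2233 did not pass. In all, 812 probe sets (2.62%) changed in opposite directions with E2 on the 2 diets and 819 (2.64%) with SPI without and with E2. Over the 31042 probe sets, whose values depend on one another, the 2 changes with E2 had a Pearson correlation of -0.166 and a Spearman correlation of 0.0159, and the 2 changes with SPI -0.00953 and 0.19. The background for the change with E2 on SPI was 5.56% higher and 5.83% lower over all probe sets, and for the change with SPI under E2 4.92% and 5.53%.

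**Figure D3:**
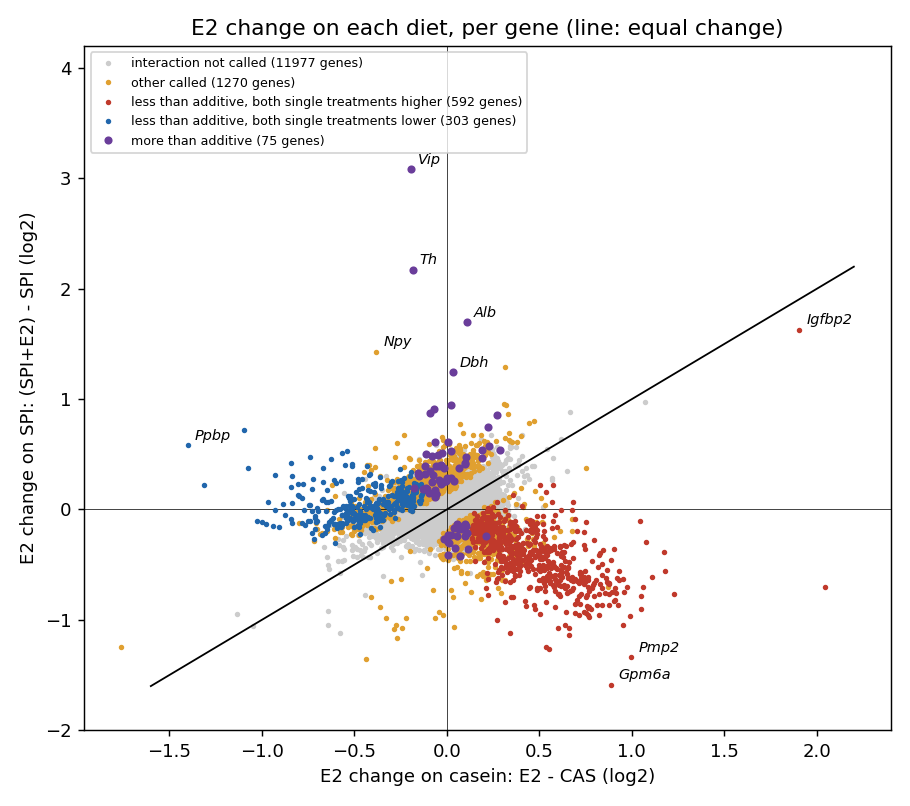
Change with E2 on casein (x axis, log2) against change with E2 on SPI (y axis, log2) for each of 14217 genes, 2 differences without a common array. Points on the line changed equally. The 592 less than additive genes raised by each treatment (red) lie mostly below 0 on the y axis, Igfbp2 lies near the line, and Vip, Th, Alb and Dbh lie near 0 on the x axis and high on the y axis.

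Several of the largest negative interactions were those of peripheral nerve genes, and 21 neuron, 10 sensory neuron and 12 Schwann cell list members were among the 1098 genes with a negative interaction. Gpm6a, a neuronal membrane glycoprotein, read -0.418, -0.452 and -0.371 in CAS, 0.86, 1.041 and 1.12 with SPI, 0.539, 0.371 and 0.517 with E2, and -0.556, -0.726 and -0.457 with SPI+E2. The single treatments lay wholly above CAS and the combination wholly below it, though SPI+E2 against CAS did not pass the test (-0.166, adjusted p = 0.2). The interaction was -2.476 (SE 0.113, adjusted p = 4.16e-08). Snap25, which drives fusion of synaptic vesicles, had -1.796 (SE 0.0673, adjusted p = 1.2e-08), and Scg2 had -1.995 (SE 0.0865, adjusted p = 3.31e-08). Synpr, a synaptic vesicle protein, and Rgs7bp, which anchors regulators of G protein signaling, had -1.835 and -1.816. All 4 lay below the sum of the single changes, but they ended at different points: Snap25 and Scg2 stayed 0.172 and 0.386 above CAS, Synpr did not pass (0.133), and Rgs7bp fell to -0.535 (adjusted p = 2.68e-04).

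In the neuron list 21 of 22 genes had a negative interaction, beside 7.72% of all genes. Syt1 alone did not pass (0.05), and the list median was -1.439. Median changes against CAS were 0.991 with SPI, 0.683 with E2 and 0.216 with both. The neurofilament genes Nefl, Nefm and Nefh, which build the axon skeleton, had interactions of -1.679, -1.687 and -1.67. Of 11 sensory neuron genes 10 had a negative interaction (median -1.353) and the cold channel gene Trpm8 did not pass (-0.161). Calcb and Calca, which encode the vasodilator peptide CGRP and, for Calca, calcitonin, had -1.78 and -1.203, and Tac1, the substance P gene, -1.652. Calca read -0.229, -0.153 and -0.289 in CAS, 0.426, 0.474 and 0.384 with SPI, 0.277, 0.239 and 0.277 with E2, and -0.25, -0.263 and -0.348 with SPI+E2, but 2 of its 3 probe sets passed, with interactions from -1.78 to -0.188. The sodium channel genes Scn9a, Scn10a and Scn11a of pain-sensing neurons had -1.715, -1.353 and -1.571.

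Schwann cells wrap peripheral axons in myelin, and 12 of their 14 measured genes had a negative interaction with a median of -0.968, beside 7.72% of all genes. Erbb3 and Foxd3 did not pass (-0.208 and 0.162). Pmp22, a structural protein of peripheral myelin, read -0.442, -0.408 and -0.422 in CAS, 0.45, 0.429 and 0.398 with SPI, 0.562, 0.579 and 0.557 with E2, and -0.524, -0.535 and -0.562 with SPI+E2. The groups did not overlap, and the interaction of -1.956 (SE 0.0486, adjusted p = 1.33e-09) was negative in both probe sets. Pmp2, a lipid-binding protein of myelin, rose by 0.58 with SPI and 0.998 with E2 and fell to -0.756 with both, an interaction of -2.336 (SE 0.132, adjusted p = 1.98e-07). Mal (-1.999) and Prx (-1.953), also myelin proteins, were at CAS with the combination (-0.018 and 0.005). Median changes of the list were 0.661, 0.426 and -0.029. In the combination neuron genes had a median of 0.216 above CAS and Schwann cell genes one of -0.029. By test 16 of 22 neuron genes were above CAS and 0 below, and 1 of 14 Schwann cell genes was above and 4 below. Over all 14217 genes 824 were above and 1004 below. The difference between the lists was not tested.

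**Figure D4:**
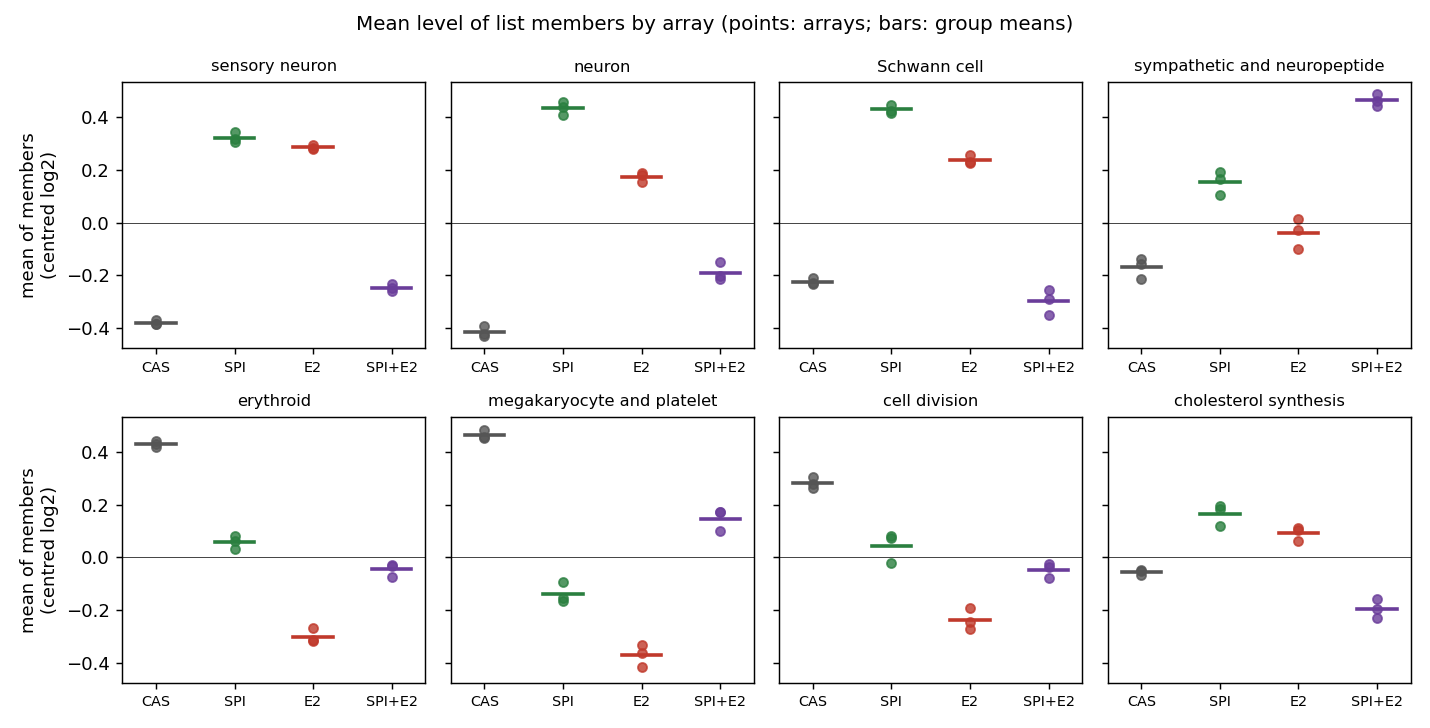
Mean centred log2 value of the measured members of 8 gene lists on each array, by group, with points as arrays and bars as group means. Nerve and cholesterol lists are high with SPI and E2 and low with CAS and SPI+E2, the sympathetic list is highest with SPI+E2, and the erythroid, platelet and cell division lists are highest with CAS.

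The nerve lists moved together across the arrays. The mean level of the sensory neuron list was between -0.384 and -0.369 in CAS, 0.306 and 0.344 with SPI, 0.277 and 0.293 with E2, and -0.257 and -0.233 with SPI+E2, and that of the Schwann cell list was -0.231 to -0.211, 0.416 to 0.445, 0.225 to 0.256 and -0.35 to -0.253. Genes of central glia, which myelinate and support brain and spinal cord, followed another course, with 0.003 to 0.086 in CAS, 0.511 to 0.57 with SPI, -0.396 to -0.307 with E2 and -0.088 to -0.041 with SPI+E2. Of 14 central glia genes 4 had a negative interaction and 1 a positive one, beside 7.72% and 8.03% of all genes. Fa2h, which makes myelin lipids in both kinds of glia, had -1.335, Olig1 -0.918, Opalin -0.756 and Cldn11 -0.522, while Mobp had 0.513. The call of Olig1 was lost without the second E2 array (-0.736, adjusted p = 0.0507), and after quantile normalization Olig1 and Opalin did not pass. Others were close to additive: Gfap, the filament of astrocytes, changed by 0.76 with SPI, -1.132 with E2 and -0.188 with both (interaction 0.183, adjusted p = 0.171). How far the amount of nervous tissue in each pool bears on the nerve and neuropeptide results was not tested.

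Genes of cholesterol synthesis were the other list with mainly negative interactions. Of 15 measured, 11 had a negative interaction and none a positive one (median -0.503), beside 7.72% and 8.03% of all genes. Insig1, Mvd, Mvk and Stard4 did not pass. Msmo1, a methyl sterol oxidase, rose by 0.41 with SPI and 0.37 with E2 and was -0.201 with both, with an interaction of -0.976 (SE 0.0865, adjusted p = 1.01e-05). Idi1, which makes the isoprene unit, had -0.923 (SE 0.0914) and fell below CAS with both (-0.392, adjusted p = 0.0023). Sqle, squalene epoxidase, had -0.888. Median changes of the list were 0.195, 0.194 and -0.091. As the plot of list levels by array shows, the list was high and low in the same groups as the Schwann cell list, and the part of myelinating cells in this was not tested.

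**Figure D5:**
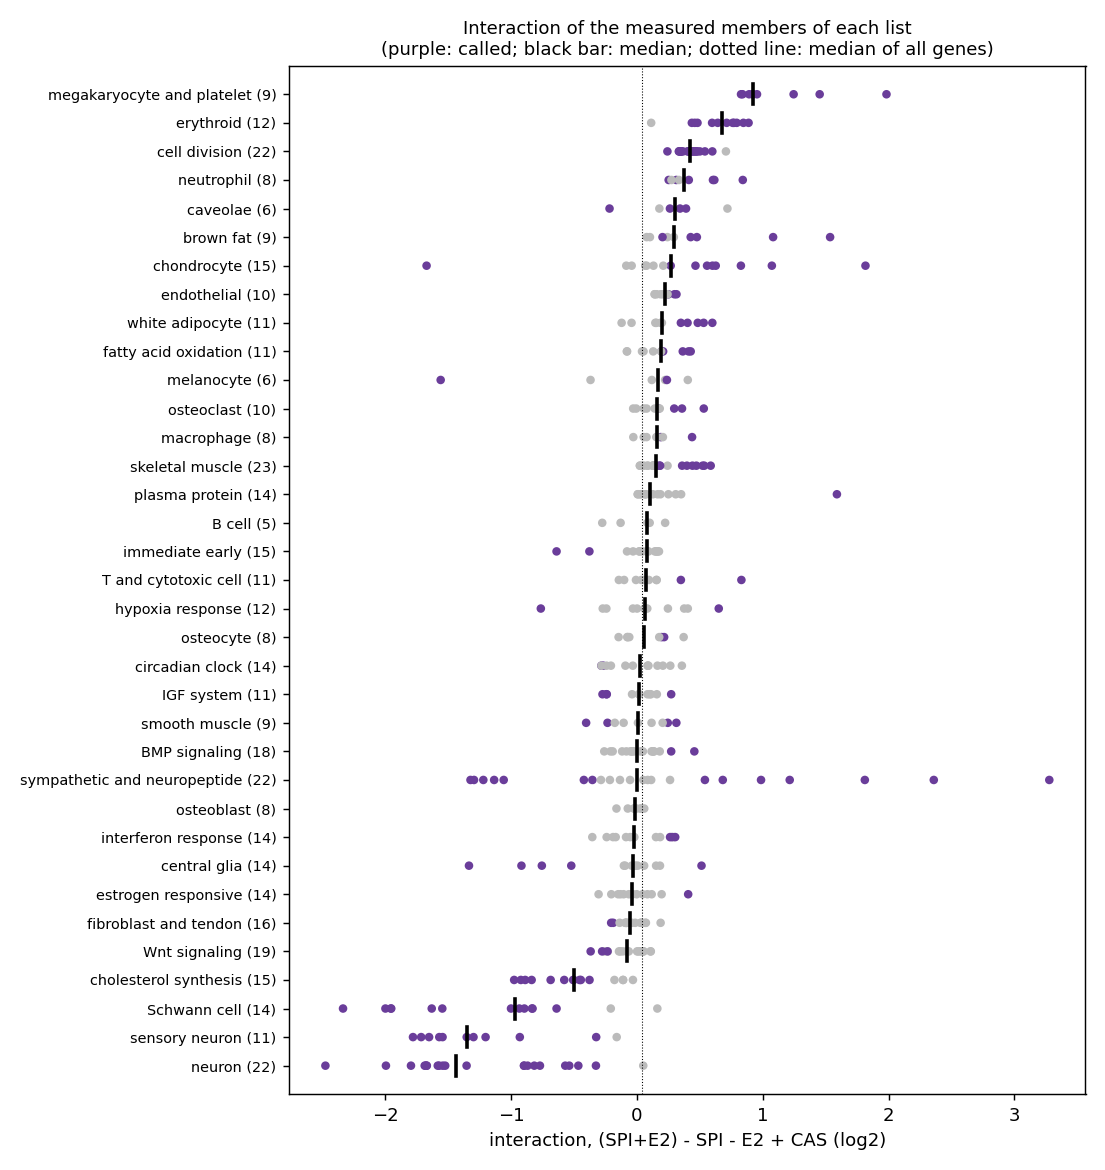
Interaction (log2) of every measured member of the gene lists, each point a gene, purple where it passed the test, with the list median as a black bar and the median of all genes as a dotted line. Platelet, erythroid and cell division genes lie right of 0, cholesterol, Schwann cell and neuron genes left of it, and the sympathetic list spreads both ways.

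Blood-forming genes showed the mirror image, mostly lower with each treatment, with less than the sum under both. All 9 platelet and megakaryocyte genes had a positive interaction (median 0.923), beside 8.03% of all genes. Ppbp, a platelet chemokine, read 1.065, 0.905 and 1.009 in CAS, -0.277, -0.249 and -0.361 with SPI, -0.544, -0.361 and -0.319 with E2, and 0.281, 0.249 and 0.329 with SPI+E2. The combination lay between CAS and either single treatment with no overlap, and the interaction was 1.983 (SE 0.0897, adjusted p = 4.16e-08). Pf4, platelet factor 4, and Tubb1, the tubulin of platelets, had 1.245 and 1.452. Of 12 erythroid genes 11 had a positive interaction (median 0.678) and the hemoglobin gene Hbb did not pass (0.113). Hemgn, a regulator of red cell precursors, Car1, a carbonic anhydrase, and Slc4a1, the anion exchanger of red cells, had 0.887, 0.846 and 0.793. Erythroid genes stayed low with both treatments, with median changes of -0.448, -0.746 and -0.511, and platelet genes had -0.601, -0.785 and -0.285.

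Cell division genes had 21 of 22 positive interactions (median 0.424), beside 8.03% of all genes, and Aurkb did not pass (0.707, adjusted p = 0.0523). Ccna2, a cyclin of DNA replication, read 0.577, 0.406 and 0.499 in CAS, -0.08, 0.065 and 0.194 with SPI, -0.282, -0.272 and -0.065 with E2, and -0.081, -0.18 and 0.134 with SPI+E2. All treated arrays lay below CAS, and the combination lay near SPI, with an interaction of 0.599 (SE 0.132, adjusted p = 0.009). Mcm3, a subunit of the replication helicase, had 0.54. The list levels were 0.264 to 0.304 in CAS and -0.077 to -0.026 with SPI+E2. Marrow had been aspirated before extraction, and the amount of marrow left in each pool was not tested as a part of the results on blood and dividing cells.

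Cartilage genes of the growth plate mostly had positive interactions, 8 of 15, with 1 negative and a median of 0.268. Among all genes 8.03% were positive and 7.72% negative. Col10a1, the collagen of hypertrophic chondrocytes, read 1.187, 1.11 and 1.179 in CAS, -0.907, -0.757 and -0.824 with SPI, 0.041, 0.028 and 0.118 with E2, and -0.144, -0.158 and -0.028 with SPI+E2. The SPI arrays were lowest and the combination lay just under E2 alone, so E2 on SPI raised Col10a1 by 0.72 (adjusted p = 2.91e-06) where E2 on casein gave -1.096. Its interaction was 1.816 (SE 0.0739, adjusted p = 2.21e-08). Col9a1, a collagen of the cartilage fibril surface, Hapln1, which links proteoglycan to hyaluronan, and Comp, a matrix protein, had 1.072, 0.826 and 0.626. Cnmd, which encodes the cartilage protein chondromodulin, went the other way: it rose with SPI (0.469) and E2 (0.716), fell with both (-0.487), and had an interaction of -1.672 (SE 0.0827, adjusted p = 7e-08).

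Genes of the 3 bone cell types differed in their counts, beside 8.03% of all genes with a positive and 7.72% with a negative interaction. Of 8 osteoblast genes 0 passed, with interactions between -0.163 for Ibsp, bone sialoprotein, and 0.058 for Dlx5, a transcription factor. Col1a1, the main bone collagen, lay at -0.073 (95% confidence interval -0.175 to 0.03). Of 8 osteocyte genes Mepe and Dmp1, matrix proteins of mineralising osteocytes, passed at 0.216 and 0.196, calls that were lost in 10 and 9 of the 12 fits that left out an array. Sost, which encodes the Wnt inhibitor sclerostin, did not pass (-0.076, adjusted p = 0.795, 95% confidence interval -0.394 to 0.242). Of 10 osteoclast genes 4 had a positive interaction. Car2, the carbonic anhydrase that acidifies the resorption pit, had 0.531, Itgb3, an integrin subunit, 0.358, Acp5, tartrate-resistant phosphatase, 0.296, and Ctsk, the collagen-degrading protease, 0.172. They differed in form: Car2 was below CAS with SPI (-0.276), E2 (-0.711) and both (-0.455). The erythroid gene Car1 had the same order, at -0.57, -0.977 and -0.701. Which cells carried the Car2 signal was not tested. Itgb3, Acp5 and Ctsk were above CAS with both (0.248, 0.232 and 0.338). Acp5 read 0.185, 0.182 and 0.179 with SPI+E2 against -0.217 to -0.179 with E2, and fell with E2 on casein (-0.146, adjusted p = 0.012).

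Cav1, Bmp2 and Atf3, to which the study gave particular attention, all had an interaction. Cav1, the scaffold protein of caveolae, read 0.139, 0.178 and 0.293 in CAS, -0.351, -0.262 and -0.29 with SPI, 0.011, 0.077 and 0.115 with E2, and -0.114, -0.012 and -0.159 with SPI+E2. SPI was lowest, E2 did not pass against CAS (-0.136) and the combination lay between CAS and SPI, with an interaction of 0.342 (SE 0.0771, adjusted p = 0.0101) that 1 of its 3 probe sets passed. Its relatives Cav2 and Cav3 had 0.262 and 0.39. Of 6 measured caveolae genes 3 had a positive interaction, 1 a negative one and 2 did not pass, with values from -0.218 to 0.719. Over all genes 8.03% had a positive and 7.72% a negative interaction. The highest value, that of Cavin2, did not pass (adjusted p = 0.0734). Bmp2, a bone-inducing growth factor, had 0.456 (SE 0.0922, adjusted p = 0.00525), from -0.388 with SPI, -0.245 with E2 and -0.177 with both, and 1 of its 2 probe sets passed. Atf3, a stress-response transcription factor, rose with E2 (0.751) and less with both (0.437), an interaction of -0.378 (SE 0.0945, adjusted p = 0.0178). Runx2 was not measured by a probe set with a single symbol in the annotation used here.

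Igfbp2, whose product binds insulin-like growth factors, rose with each treatment and further with both, close to the sum. It read -1.4, -1.397 and -1.313 in CAS, -0.588, -0.476 and -0.592 with SPI, 0.476, 0.502 and 0.623 with E2, and 1.123, 1.009 and 1.1 with SPI+E2. Each step was upward with no overlap: 1.76-fold over CAS with SPI, 3.74-fold with E2 and 5.46-fold with both. On the log2 scale the interaction was -0.274 (SE 0.0765, adjusted p = 0.0309) and was lost in 5 of 12 fits without an array. On the linear scale, where additive means the sum of the values and not the product of the folds, it was positive, 0.367 (adjusted p = 0.0028). Igf1, the growth factor itself, had 0.272 (adjusted p = 0.0133), from -0.338, -0.373 and -0.44. Greb1, an estrogen-responsive gene, rose by 0.282, 0.651 and 0.628, and its interaction of -0.305 did not pass (adjusted p = 0.0858). Of 14 estrogen-responsive genes C3, a complement protein, passed (0.407) and 13 did not. The shares over all genes were 8.03% positive and 7.72% negative.

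Of the fat, skeletal muscle and fatty acid oxidation genes that passed, all had a positive interaction. Among all genes that passed, 1142 were positive and 1098 negative, which is 8.03% and 7.72% of all genes tested. Ucp1, which uncouples brown fat mitochondria, read 0.861, 0.887 and 0.81 in CAS, -0.046, -0.17 and -0.169 with SPI, -0.448, -0.539 and -0.399 with E2, and 0.046, 0.097 and 0.134 with SPI+E2. The combination was the highest of the treated groups, and the interaction was 1.535 (SE 0.0718, adjusted p = 4.76e-08). Of 9 brown fat genes 5 had a positive interaction: Ucp1, Cidea (1.082), Cpt1b (0.476), Cox8b (0.427) and Fabp3 (0.203). These differed in form. Ucp1 and Cidea were the 2 of 9 that fell with E2 alone. Cpt1b fell with SPI (-0.364), did not pass with E2 (0.098) and was above CAS with both (0.209). White adipocyte genes had 5 of 11, all positive: Cidec, of the lipid droplet (0.599), Fabp4, a fatty acid carrier (0.53), the lipases Pnpla2 (0.483) and Lpl (0.402), and Cfd (0.349). Of 23 skeletal muscle genes 10 had a positive interaction and none a negative one (median 0.154). Myh7, the slow myosin heavy chain, was lower with SPI alone (-0.592, adjusted p = 5.66e-06) and at CAS with E2 (-0.019) and with both (-0.025). Fatty acid oxidation genes had 5 of 11 positive, namely Acadvl (0.427), Acadl (0.364) and Acadm (0.195), dehydrogenases of different chain lengths, Cpt2 (0.41) and Ucp3 (0.208). The muscle list stood at -0.213 to -0.191 with SPI and at 0.002 to 0.071 in the 9 other arrays. How much muscle or fat each pool carried was not tested.

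Eif2s3y had the largest negative interaction of all genes, and it bears on the labelled sex. The gene, a translation factor subunit, lies on chromosome Y in the reference, and all rats were labelled female. It read -1.817, -1.893 and -2.2 in CAS, 0.257, 0.326 and 0.862 with SPI, 0.007, 0.024 and 0.189 with E2, and -0.372, -0.282 and -0.007 with SPI+E2, an interaction of -2.746 (SE 0.218, adjusted p = 3.87e-06). The other measured Y-linked genes, Uty and Sry, did not pass (0.251, adjusted p = 0.0543, and 0.132, adjusted p = 0.715). Against CAS, Eif2s3y rose by 2.452 with SPI, where Uty fell (-0.183, adjusted p = 0.0341) and Sry did not pass (0.083, adjusted p = 0.7). With E2 Eif2s3y rose by 2.043, and Uty (-0.082) and Sry (-0.127) did not pass. With both treatments Eif2s3y was 1.75 above CAS, and Uty (-0.014) and Sry (0.089) did not pass. Xist, the RNA of the inactive X chromosome, was between 0.183 and 0.284 in CAS and between -0.067 and 0.025 in the treated arrays, with an interaction of 0.334 (adjusted p = 0.00163). The sex of the pools behind these values was not tested.

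Other lists held 0 to 4 genes with an interaction, beside 8.03% positive and 7.72% negative among all genes. B cell genes had 0 of 5 and Wnt signaling 3 of 19, all negative: Wnt16 (-0.368), Sfrp1 (-0.277) and Sfrp2 (-0.234), of which the calls of Wnt16 and Sfrp1 were lost in 9 and 10 of 12 fits without an array. BMP signaling had 2 of 18, Bmp2 and Id1 (0.272). Immediate early genes had 2 of 15, Egr2, which also drives myelination (-0.639), and Atf3. Circadian clock genes had 2 of 14, Nr1d1 (-0.283) and Dbp (-0.268), and interferon response genes 3 of 14, Oas1a (0.304), Rsad2 (0.279) and Irf9 (0.263). T and cytotoxic cell genes had 2 of 11, Nkg7 (0.83) and Prf1 (0.349), both of cytotoxic granules. Endothelial genes had 3 of 10, all positive: Pecam1 (0.314), Esam (0.298) and Emcn (0.247). Macrophage genes had Cd68 and Csf1r (0.189) of 8, and smooth muscle genes Lmod1 (0.313), Des (0.245), Cnn1 (-0.404) and Myh11 (-0.234) of 9. Of 12 hypoxia response genes Egln3, an oxygen sensor, had 0.65 and Ndrg1 -0.764. Melanocyte genes had Tyrp1, a pigment enzyme, at -1.56 and Mitf, the transcription factor of this lineage, at 0.238, of 6. In the IGF system, beside Igf1 and Igfbp2, the binding protein genes Igfbp4 and Igfbp6 had -0.243 and -0.24, 4 of 11 in all.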

How the data were processed

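Gene expression in 12 RNA pools was measured on Affymetrix rat arrays. According to the submitters' processing notes and the study's methods, the authors scanned the arrays with GCOS, summarised probes by RMA and normalised the deposited log2 values per chip and per gene, which centres every probe set on a median of 0 over the 12 arrays. Levels and signal over background are therefore unreadable. The log base follows from RMA: natural logs would change folds and not signs or p-values. Array medians lay between -0.00416 and 0.00721, and median SDs within groups between 0.0694 and 0.0957. Genome build of the probes is not given in the sources used here.

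The 4 group means were estimated by limma (version 3.58.1; R 4.3.3), with moderated tests and Benjamini-Hochberg adjustment over all 31042 probe sets, or 14217 genes, per comparison and a threshold of 0.05. All adjusted p-values are from limma. The methods name a two-way analysis of variance for the interaction, which was run as an alternative. The 57 control probe sets were left out. Of the others 20826 had a single symbol in the platform annotation, 436 had several and 9780 had none, and a gene is the mean of its probe sets. The script was tested on simulated data. Named genes were the 10 largest interactions in each direction that passed without any single array, the 10 largest more than additive genes in each direction, Cav1, Atf3, Calca, Sost, Bmp2, Runx2 and Snap25, and up to 3 members of each gene list with the largest interaction. Other genes are list members or were named after their values were seen. The members, the gene lists and the classes were chosen with earlier results of these data known. Promoters came from RefSeq on build GRCr8. Alternatives were the replicate block, quantile or median normalization, robust variances, array weights, the linear scale, other thresholds, and leaving out each array.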

Additional observations from a re-analysis of the deposited data

Results flagged for a closer look

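The change with E2 differed by diet in 812 probe sets to the extent of running in opposite directions, both past the test, with the interaction also past it: 749 rose with E2 on casein and fell on SPI, and 63 did the reverse. In the same sense, the change with SPI ran in opposite directions without and with E2 in 819 probe sets, of which 670 rose with SPI on its own and fell when E2 was given. These results were singled out because the same contrast gave different effects in different groups, by a test of the difference itself. Groups of 3 arrays are too small for the test of outlying arrays.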

How the results depend on the processing

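The reported results kept their direction under the replicate block, quantile normalization, median centring, robust variances, array weights, unmoderated two-way analysis of variance, the linear scale and a restriction to the more variable probe sets, and counts stayed within 1.5 times, except that Igfbp2 reversed on the linear scale (0.367). At an adjusted p under 0.01, 518 probe sets had a positive interaction, 32 and 7 were more than additive and higher or lower, 605 and 158 were less than additive with both single treatments higher or lower, 499 had an E2 effect and 429 an SPI effect that reversed, and 527 genes had a positive and 723 a negative interaction. With at least 1.5-fold size, the counts were 224 positive, 1044 negative, 22 and 2 more than additive, and 132 less than additive and lower. As the mean per gene, 1098 had a negative interaction and 592 were less than additive and higher. Leaving out each array gave 839 (without CAS replicate 3) to 1257 probe sets with a positive and 1499 to 1823 with a negative interaction, 49 to 81 and 12 to 27 more than additive and higher or lower, and 213 (without CAS replicate 3) to 341 less than additive and lower. Without SPI+E2 replicate 2, the interaction of Sry, not past the test in either case, was -0.009, and its highest value was 0.293 without replicate 3. Over all named genes and the 12 fits without an array, 1409 values stayed on their side of the threshold, 126 were lost, 24 were gained and 1 reversed. Beside those named in the report, calls were lost for Csf1r and Oas1a in 8 of these fits, Lmod1 in 7, Esam and Cnn1 in 6, Nr1d1 in 5 and Prf1 in 4. The causes were not tested. With the pool number as a replicate block, 1165 probe sets had a positive and 1707 a negative interaction. Membership of the classes moved more than their counts: of the 71 higher and 25 lower more than additive probe sets, 57 and 20 were shared with the replicate block and 59 and 23 after quantile normalization, and 6 named genes lost their call under each. Of the 18 pairs of arrays with the same number in different groups, 4 had a correlation of deviations over 0.1 (range -0.0741 to 0.244), and 4 of 12 arrays correlated best with their own number, so the numbers were not taken to pair the pools.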
